A study of Mus musculus with 18 samples.

Results

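The 10 genes described here belong to prostaglandin and leukotriene metabolism and signalling, and were followed through stretched mouse skin: Ptgs1, Ptgs2, Ptges, Ptgis, Ptgds, Hpgd, Ptger2, Ptger4, Alox5ap and Ltb4r1. They were taken by symbol, as 10 of the 32285 genes in the expression matrices, and each symbol matched 1 row. No threshold on a measured value enters that rule, but the genes were picked with earlier results of these data known, so what follows describes them, and no p-value below is independent evidence for a direction among them. All mice had surgery in which a subcutaneous path was opened under the back skin; expanded mice received an expander hydrogel, which swells and stretches the skin above it, and control mice did not. Strain, sex and age are not given in the sources used here. Skin was digested, live (DAPI-negative) cells were sorted, and the mice of 1 arm and 1 sequencing round were pooled into 1 single-cell library. The 10 mRNA libraries comprised 5 control and 5 expanded ones, from day 1 (2 rounds), day 2 (2 rounds) and day 4 (1 round) after surgery. In this text, values listed per library keep that order: day 1 round 1, day 1 round 2, day 2 round 1, day 2 round 2, day 4.

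Both families of lipid mediators start from arachidonic acid released from membrane phospholipids. The cyclooxygenases Ptgs1 and Ptgs2 turn it into prostaglandin H2, which terminal synthases convert further: Ptges makes prostaglandin E2, Ptgis prostacyclin and Ptgds prostaglandin D2. Hpgd oxidises and so inactivates prostaglandins, and Ptger2 and Ptger4 are receptors of prostaglandin E2 that raise cyclic AMP. In the leukotriene branch, Alox5ap presents arachidonic acid to 5-lipoxygenase, and Ltb4r1 is the high-affinity receptor of leukotriene B4, which attracts neutrophils and other leukocytes. In skin these mediators are known for their roles in inflammation, wound repair and hair growth.

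The windows around the annotated starts of the 4 enzymes on which most of the results turn are printed first, since expression of these genes is what differed between the arms. Each runs from 250 bases before to 50 bases after the RefSeq start on the gene's strand (GRCm38.p6), at chr1:150099781-150100080 on the plus strand for Ptgs2, chr2:30903248-30903547 on the minus strand for Ptges, chr8:56294302-56294601 on the plus strand for Hpgd and chr2:36230176-36230475 on the plus strand for Ptgs1. Capitals mark matches, on either strand, to any of 6 short motifs. These were the TATA box (TATAAA), the E box (CACGTG), the core of the cyclic AMP response element (ACGTCA), the C/EBP motif (TTGCNNAA), the AP-1 motif (TGANTCA) and the GC box (GGGCGG).
Ptgs2: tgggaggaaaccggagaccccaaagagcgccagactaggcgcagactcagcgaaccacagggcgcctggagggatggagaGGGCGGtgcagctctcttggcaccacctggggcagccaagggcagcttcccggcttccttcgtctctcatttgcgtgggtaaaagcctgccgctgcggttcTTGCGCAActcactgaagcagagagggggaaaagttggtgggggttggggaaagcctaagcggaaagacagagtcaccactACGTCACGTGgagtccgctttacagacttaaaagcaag
Ptges: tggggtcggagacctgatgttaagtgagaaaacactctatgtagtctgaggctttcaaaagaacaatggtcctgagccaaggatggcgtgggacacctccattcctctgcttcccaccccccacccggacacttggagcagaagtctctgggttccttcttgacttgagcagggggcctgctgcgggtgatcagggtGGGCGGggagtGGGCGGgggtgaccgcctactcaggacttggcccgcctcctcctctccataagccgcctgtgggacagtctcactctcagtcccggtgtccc
Hpgd: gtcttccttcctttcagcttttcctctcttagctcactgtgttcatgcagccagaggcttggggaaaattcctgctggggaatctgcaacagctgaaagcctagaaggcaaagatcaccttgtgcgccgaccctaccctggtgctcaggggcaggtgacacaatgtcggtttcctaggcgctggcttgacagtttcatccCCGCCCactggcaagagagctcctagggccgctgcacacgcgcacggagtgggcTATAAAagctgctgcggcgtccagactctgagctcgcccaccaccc
Ptgs1: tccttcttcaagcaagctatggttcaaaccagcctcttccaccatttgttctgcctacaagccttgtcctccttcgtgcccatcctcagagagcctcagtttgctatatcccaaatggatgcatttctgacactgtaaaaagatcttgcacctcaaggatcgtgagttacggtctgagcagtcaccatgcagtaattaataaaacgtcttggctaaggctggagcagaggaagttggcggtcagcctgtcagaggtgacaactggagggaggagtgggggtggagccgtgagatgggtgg
Counted from 0 at the start base, the Ptgs2 window held a GC box at -170 to -165, a C/EBP match at -69 to -62, and a cyclic AMP element core at 12 to 17 that overlaps an E box at 16 to 21. The Ptges window held GC boxes at -53 to -48 and -42 to -37. The Hpgd window held a GC box at -50 to -45 and a TATAAA match at 4 to 9, and the Ptgs1 window held none of the 6. The TATAAA match lies past the RefSeq start and is given by its letters only. GENCODE starts Hpgd further on, at 56294585, and Ptges outside its window, at 30929863. Among 32851 promoter windows of the same length, 35.7% held a GC box, 13.6% the TATA box and 10.8% the C/EBP motif. The AP-1 motif was in 7.81% of them, the cyclic AMP element core in 7.51% and the E box in 7.15%. The 4 windows differed in base composition, from 50.7% G and C at Ptgs1 to 60% at Ptges. RefSeq windows were found for 8 of the 10 genes; Ptgis and Alox5ap had none.

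The libraries held 45457 cells after filtering and doublet removal, 28440 control and 17017 expanded, with 1853 to 7956 cells and 17726739 to 75470722 gene UMIs (unique molecular identifiers, each standing for 1 captured transcript) per library. Clustering gave 37 clusters, of which 29 were named from marker genes as 17 classes; 8 clusters with 5478 cells stayed unnamed and are called by number. No more than 23 cell barcodes (0.377%) were shared by any 2 libraries. Over all cells the members gave 121062 UMIs for Ptgs2, 65589 for Alox5ap, 18417 for Hpgd, 15452 for Ptges, 11617 for Ltb4r1, 8916 for Ptger4, 5309 for Ptgs1, 4341 for Ptgds, 668 for Ptger2 and 548 for Ptgis, so that Ptger2 and Ptgis rest on few molecules. Levels are UMI counts scaled to a common library total (CPM) of a class in a library with at least 20 of its cells. Ptges overlaps the annotated gene Gm13400 on its own strand and Hpgd overlaps Gm45540, so that reads in those stretches may have been assigned to either.

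Each member had its own place in the skin. The order of mean levels over libraries of both arms, in 22 classes and clusters, is a description with no test, since the cells were clustered on all genes. Ptgs1 (chr2:36230426-36252272) was highest in cluster 29, led by Sele and Selp, at 159 ± 59.2 CPM (SD, n = 7). This cluster stayed unnamed because its leading genes include more adipocyte than endothelial markers. Suprabasal keratinocyte-like cells followed at 156 ± 27.0 CPM (SD, n = 7), a neighbour that did not differ beyond the spread, and dermal papilla-like cells at 36.6 CPM. The first and second places held in control libraries (203 ± 21.9 and 143 ± 18.3 CPM, n = 4 each) and were exchanged in expanded ones (100.1 ± 26.5 and 174 ± 30 CPM, n = 3 each). Ptgs2 (chr1:150100031-150108227) was highest in basophil-like and neutrophil-like cells, at 1144 and 1124 CPM, followed by mast cell-like cells at 670.1, macrophage or monocyte-like cells at 639.9, fibroblast-like cells at 472 and cluster 7, led by the matrix gene Hapln1, at 311 CPM. On this scale Ptgs1 was thus highest in cluster 29 and upper epidermal cells, and Ptgs2 in myeloid classes. The Ptgs2 values spread widely, with an SD of 1087 CPM in basophil-like (n = 6) and 545 CPM in neutrophil-like cells (n = 8). Cluster 11 of the fibroblast-like class was near these levels, at 1132 CPM in control and 1174 CPM in expanded libraries.

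Of the terminal synthases, Ptges (chr2:30889471-30929863) was a mesenchymal and epidermal gene, with 179 CPM in dermal papilla-like cells, 102 CPM in fibroblast-like cells and in cluster 28, and 88.2 CPM in suprabasal keratinocyte-like cells. Ptgds (chr2:25466709-25470046) was nearly restricted to melanocyte-like cells, at 1416 ± 2248 CPM (SD, n = 8) against 3.23 CPM in the next class. Ptgis (chr2:167191805-167240604) stayed low, at 8.36 CPM in cluster 13, 7.55 CPM in Schwann-like cells and 4.25 CPM in cluster 7. Hpgd (chr8:56294585-56321043), the inactivating enzyme, was highest in cluster 33 at 119 ± 129 CPM (SD, n = 5), fibroblast-like cells at 71.1 CPM and cluster 19 at 66.8 CPM. This order differed by arm. Fibroblast-like cells were at 108 CPM in control and 34.5 CPM in expanded libraries, and dermal papilla-like cells at 38.6 ± 14.0 and 50.6 ± 46.5 CPM (SD, n = 4 each). Cluster 33 was at 133% of the fibroblast level in control and 60.6% in expanded libraries, and cluster 19 at 97.2% and 8.52%.

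Ptger2 and the leukotriene genes were read mostly from leukocytes. Ptger2 (chr14:44988195-45003820) reached 33.7 CPM in neutrophil-like cells, 9.45 CPM in basophil-like cells and 8.28 CPM in T or innate lymphoid cell-like cells. Ptger4 (chr15:5206661-5244187) was broader, with 44.5 CPM in dendritic or Langerhans-like cells, 41.6 CPM in suprabasal keratinocyte-like cells and 29.7 CPM in macrophage or monocyte-like cells. In control libraries fibroblast-like cells held 29.5% of its UMIs, dendritic or Langerhans-like cells 17.5% and macrophage or monocyte-like cells 16.3%. Alox5ap (chr5:149264767-149288153) stood at 1031 CPM in basophil-like, 1009.6 in neutrophil-like, 658 in dendritic or Langerhans-like and 654 CPM in macrophage or monocyte-like cells. Ltb4r1 (chr14:55765962-55768494) was at 104 CPM in dendritic or Langerhans-like, 101 in macrophage or monocyte-like and 97.6 CPM in neutrophil-like cells, and at 32.2 CPM in T or innate lymphoid cell-like cells. By arm, dendritic or Langerhans-like cells stood above macrophage or monocyte-like cells in control libraries (75.7 and 32.7 CPM) and below them in expanded ones (132 and 169.9 CPM).

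**Figure D1:**
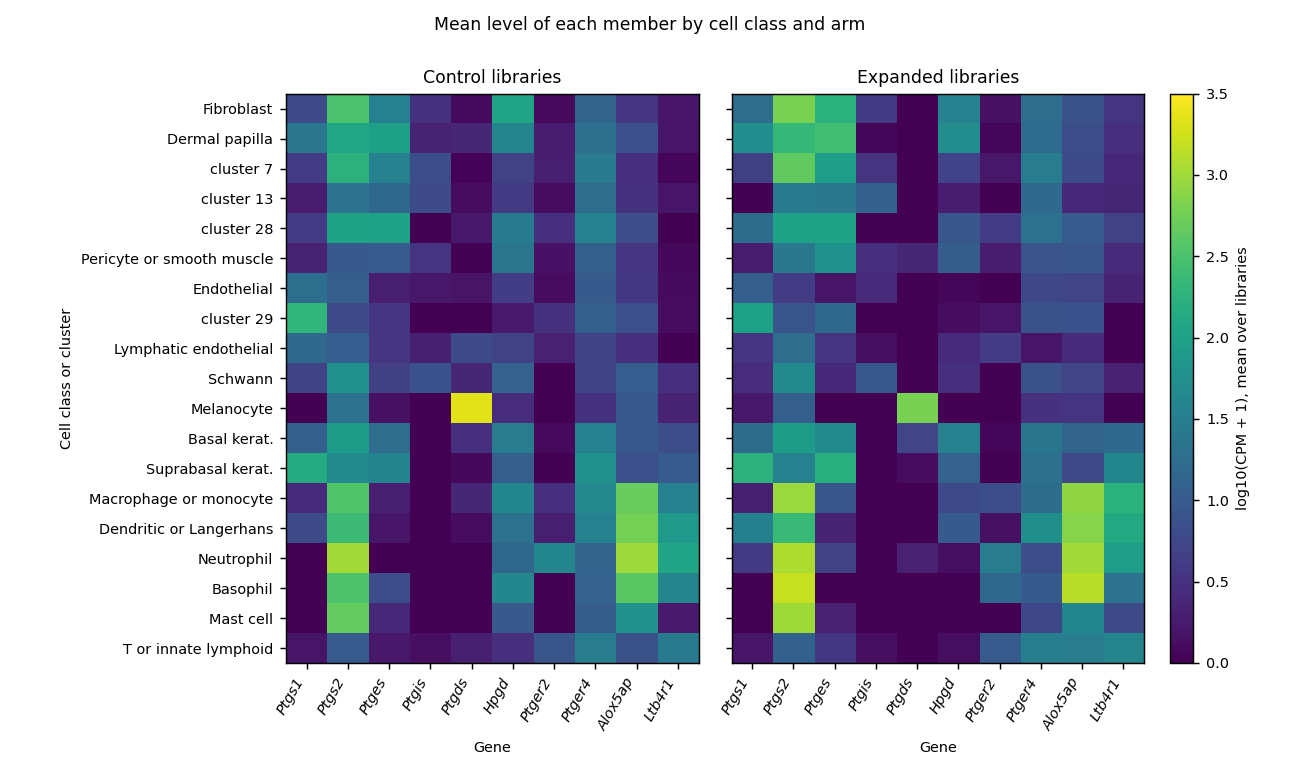
Colour gives log10 of the mean CPM plus 1 over control (left) and expanded (right) libraries for each of the 10 genes (columns) in each class or cluster (rows). Ptgds is bright only in the melanocyte-like row, and Alox5ap and Ltb4r1 are bright in the myeloid rows of both panels.

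How the molecules were divided among classes differed between the arms, which depends on the number of cells sorted as well as on the level per cell. Fibroblast-like cells numbered 10450 in control and 1754 in expanded libraries, and their mean share of a member's UMIs moved from 81.0% to 34.2% for Hpgd, from 70.2% to 42% for Ptges, from 66.4% to 29.1% for Ptgs2 and from 31.2% to 16.2% for Ptgs1. Macrophage or monocyte-like cells, 2882 and 2469 in number, moved the other way, from 12.1% to 39.4% of the Ptgs2 UMIs, from 35.8% to 56.3% of those of Alox5ap and from 15.5% to 53.0% of those of Ltb4r1. Neutrophil-like cells numbered 108 in control and 1208 in expanded libraries and held 3.13% and 24.4% of the Ptger2 UMIs. Basal keratinocyte-like cells held 3.53% of the Hpgd UMIs in control and 39.7% in expanded libraries. Melanocyte-like cells kept 88.5% and 85.1% of those of Ptgds.

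**Figure D2:**
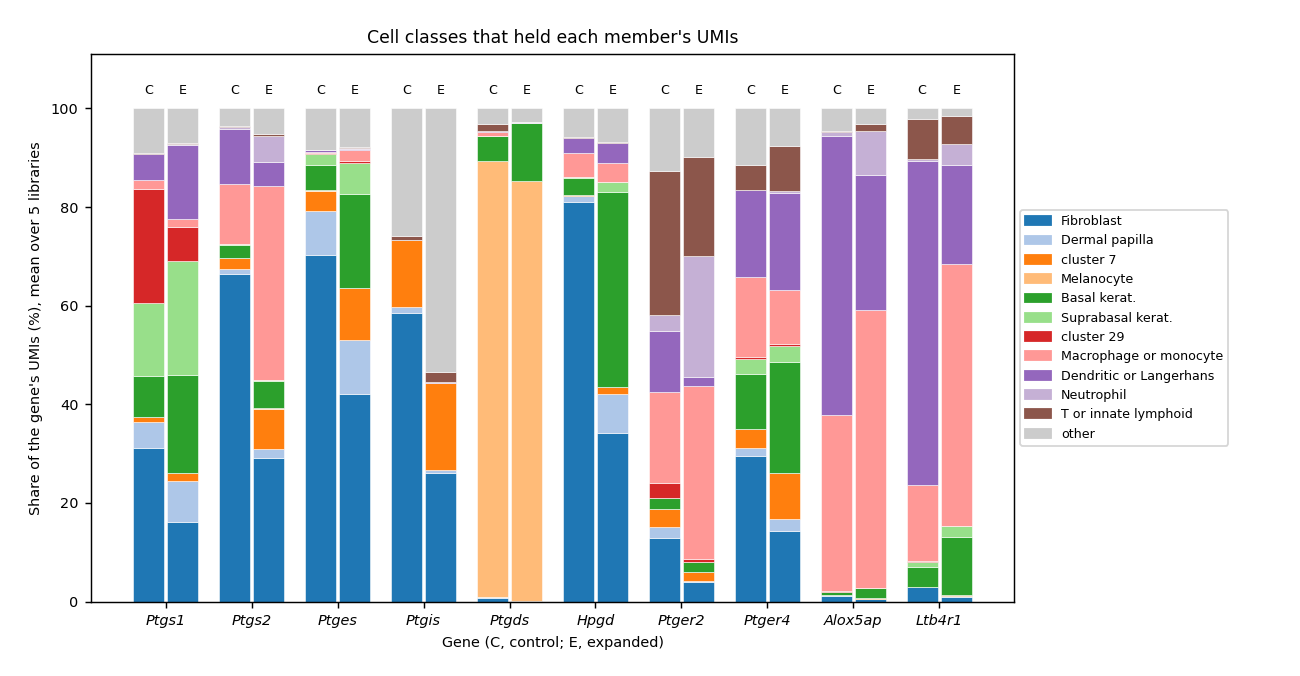
Stacked bars give the mean share of each gene's UMIs, in percent over 5 libraries, that came from each class, for control (C) and expanded (E) libraries; grey is all other classes and clusters. The fibroblast-like share of Hpgd falls from 81.0% to 34.2%, and the macrophage or monocyte-like share of Ltb4r1 rises from 15.5% to 53.0%.

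Expanded and control skin were compared within each class by edgeR's quasi-likelihood test on counts summed per library, with day as a covariate; a gene is called at a Benjamini-Hochberg adjusted p under 0.05 over all genes of the class. Libraries pool several mice, so p-values measure the spread between libraries. Of 140 combinations of a member with 11 named classes or 3 unnamed clusters, 52 passed the filter on low counts, 21 were called and 31 were not. Ptges was called in 5 of its 7 classes past the filter, each time higher in expanded skin, and Hpgd in 3 of 6, each time lower. Ptgs2 was called higher in 4 of 10, Ptgs1 higher in 3 of 5, Ltb4r1 higher in 3 of 5, Alox5ap higher in 1 of 5, Ptger2 higher in 1 of 2 and Ptger4 lower in 1 of 10. Ptgis and Ptgds, each past the filter in 1 class, were not called.

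By class, the members called stood beside a varying share of all genes called, which is given for reference only. In fibroblast-like cells 5 of the 8 members past the filter were called, where 33.1% of all genes were, with a median log2 fold change of 0.86 for these members and 0.01 for all genes. In macrophage or monocyte-like cells 6 of 6 were called against 23.4% of all genes, with medians of 0.97 and 0.01. In basal keratinocyte-like cells 2 of 7 were called (10.5% of all genes), in dendritic or Langerhans-like cells 1 of 6 (20%), in dermal papilla-like cells 3 of 5 (3.56%), in pericyte or smooth muscle-like cells 2 of 2 (19.4%) and in cluster 7 2 of 3 (8.40%). None was called in endothelial-like cells (2 past the filter, 10.9% of all genes called), T or innate lymphoid cell-like cells (5, 0.638%), Schwann-like cells (1, 0.257%), melanocyte-like cells (1, 1.33%), cluster 13 (3, 1.63%) or cluster 28 (3, 6.76%). No member passed the filter in lymphatic endothelial-like cells, where 12.0% of all genes were called. The median log2 fold change of members was 0.51 in basal keratinocyte-like, 0.23 in dendritic or Langerhans-like and 0.95 in dermal papilla-like cells. It was 0.48 in pericyte or smooth muscle-like cells, 0.22 in T or innate lymphoid cell-like cells and 1.20 in cluster 7. Clusters 13 and 28 gave 0.34 and 0.02. Endothelial-like cells gave -0.95, Schwann-like cells -1.01 and melanocyte-like cells -1.05. Of the 21 calls, 13 held under each alternative fit of the class that could be made, leaving out any library included. A fit in which the gene did not pass the filter is not counted there.

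**Figure D3:**
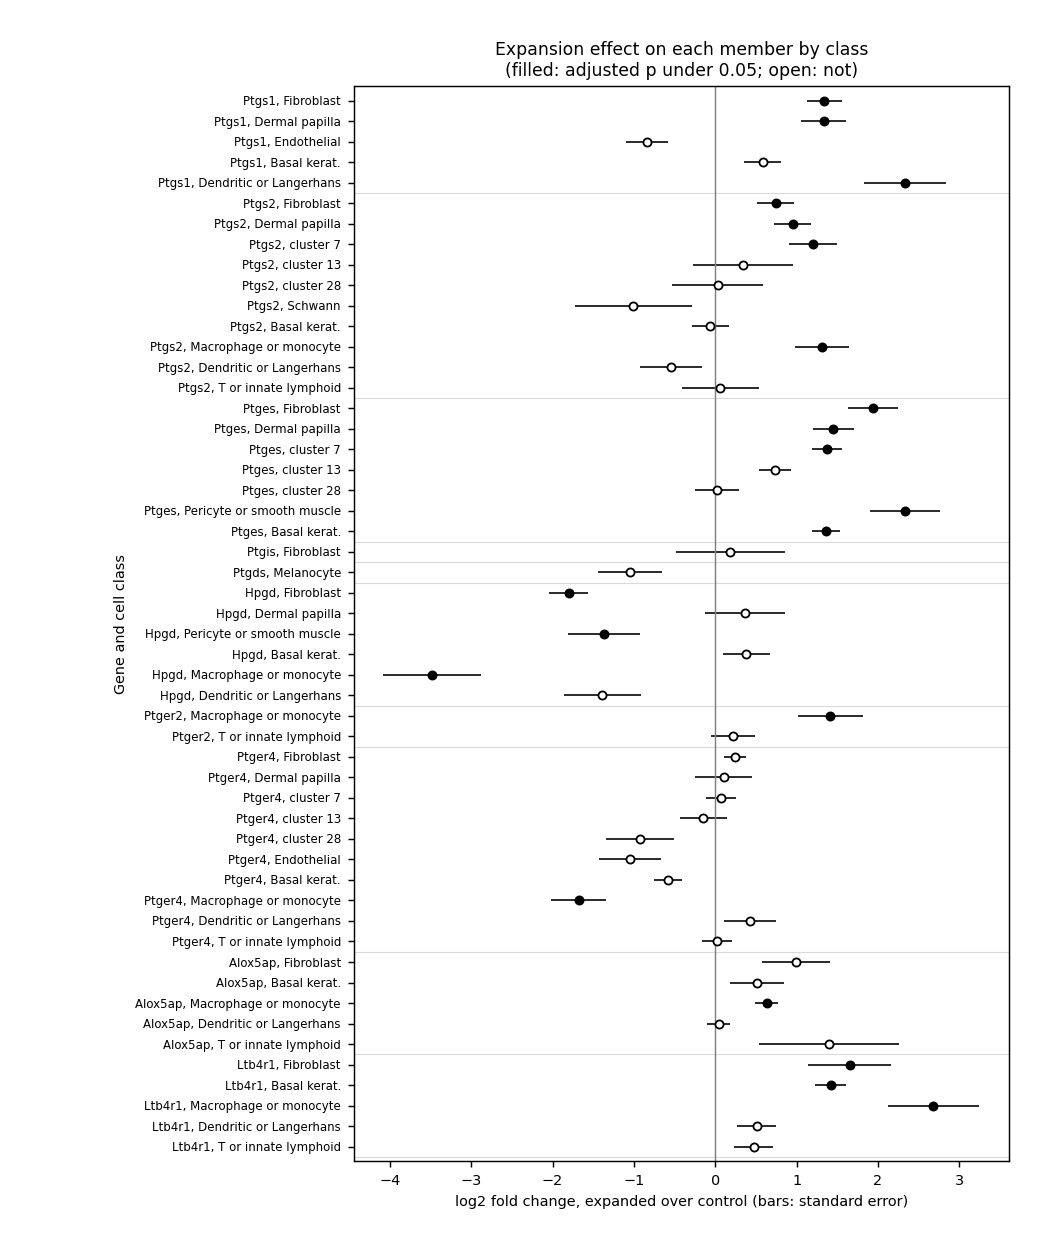
Points give the log2 fold change of expanded over control skin for each member and class past the filter, with bars for the standard error; filled points have an adjusted p under 0.05. All 7 Ptges points lie at or above 0.02, and the 3 filled Hpgd points lie between -3.48 and -1.37.

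Ptgs1, the constitutive cyclooxygenase, rose in fibroblast-like cells, where the control libraries gave 4.52, 5.99, 6.39, 6.08 and 5.03 CPM and the expanded ones 11.0, 15.3, 11.7, 22.6 and 24.1 CPM. The groups did not overlap, and the log2 fold change was 1.34 (SE 0.21, edgeR adjusted p = 0.00108). Cluster 5 held a mean of 16.7% of this class in control and 34.7% in expanded libraries, and the part of this makeup in the class value was not tested. Within the class Ptgs1 was called in cluster 11, at means of 1.11 and 9.01 CPM (2.87, adjusted p = 0.00902), and not in cluster 5, at 18.8 and 33.2 CPM (0.55, adjusted p = 0.0935). It rose further in dendritic or Langerhans-like cells, from 2.51, 8.80, 0, 13.3 and 1.5 CPM to 44.8, 28.9, 27.2, 35.2 and 22.6 CPM, again without overlap (log2 fold change 2.33, SE 0.50, adjusted p = 0.00975; 3.03 without the day 2 round 2 control library). Within that class the gene lay in cluster 20, led by Ccl22 and the Langerhans marker Cd207. It was there at 26.6 ± 27.9 CPM in control and 85.2 ± 30.1 CPM in expanded libraries (SD, n = 5 each). That difference was not called (1.42, adjusted p = 0.12, where 4.27% of all genes were called). In cluster 4, led by Lyz1, Ptgs1 was at 0.130 and 0.804 CPM. Cluster 20 made up 17.2% of the class in control and 41.6% in expanded libraries, and the part of this makeup in the class value was not tested.

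In dermal papilla-like cells, tested in 8 libraries because both day 1 round 1 libraries held under 20 of them, Ptgs1 went from 16.5, 30.2, 28.3 and 14.6 CPM to 37.2, 55.0, 47.3 and 64.1 CPM (log2 fold change 1.33, SE 0.28, adjusted p = 0.0138). The groups did not overlap, but the call was lost without the day 4 control library (0.92, adjusted p = 0.270) and without the day 4 expanded library (0.92, adjusted p = 0.291). Endothelial-like cells gave 17.5 ± 4.40 and 10.3 ± 3.48 CPM (SD, n = 5 each; -0.84, adjusted p = 0.0595, not called). Cluster 29 gave 182 to 234 CPM in 4 control and 78.1 to 129 CPM in 3 expanded libraries, too few to test. Lymphatic endothelial-like cells, where Ptgs1 did not pass the filter, gave 9.55 to 18.9 CPM in control and 0 to 3.54 CPM in expanded libraries. Fitted without a filter, this was a log2 fold change of -2.47 (SE 0.53, adjusted p = 0.000241, where 5.81% of all genes were called). Basal keratinocyte-like cells gave 10.8 ± 5.45 and 16.5 ± 3.99 CPM, not called (0.58, adjusted p = 0.126).

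Ptgs2, the inducible cyclooxygenase, rose in macrophage or monocyte-like cells, fibroblast-like cells, dermal papilla-like cells and cluster 7. In macrophage or monocyte-like cells the control libraries gave 226, 344, 253, 513 and 422 CPM and the expanded ones 556, 1578, 956, 842 and 709 CPM, without overlap (log2 fold change 1.31, SE 0.33, adjusted p = 0.0178). After thinning each cell to 2000 UMIs, 17.9% of control and 37.3% of expanded cells of this class had a Ptgs2 UMI (23.3% and 52.3% unthinned, median depths 6301 and 11908 UMIs), against 1.45% and 0.560% in endothelial-like cells (median depths 4495 and 9107 UMIs). The class is made of cluster 1, led by Chil3, and cluster 3, led by the complement gene C1qb, and these changed places: cluster 1 was 5.62% to 54.8% of the class in control and 40.7% to 99.3% in expanded libraries. Within cluster 1 Ptgs2 was at 1895 ± 1075 CPM in 4 control and 1089.7 ± 423 CPM in 5 expanded libraries. That difference, in the opposite direction, was not called (-0.62, SE 0.26, adjusted p = 0.283, where 1.39% of all genes were called). Within cluster 3 it was at 142 ± 66.7 CPM in 5 control and 101 ± 70.6 CPM in 3 expanded libraries, too few to test. The summed stress genes described with the fibroblast-like cells were at 8985 to 11407 CPM in control and 4986 to 11126 CPM in expanded libraries of this class, with 0 called higher and 7 lower, and their part was not tested. Cluster 1, where the mean Ptgs2 level was above that of cluster 3 in both arms, was the larger part of the class in expanded skin, and the part of this makeup in the class value was not tested.

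In fibroblast-like cells Ptgs2 stood at 269, 274, 287, 429 and 372 CPM in control and 272, 726, 763, 681 and 652 CPM in expanded libraries. The day 1 round 1 expanded library lay among the controls and the other 4 above them (log2 fold change 0.74, SE 0.23, adjusted p = 0.0285). This call was lost over hashed mice (0.57, adjusted p = 0.143). It was also lost without the control library of day 1 round 2 (0.73, adjusted p = 0.0550), day 2 round 1 (0.65, 0.0745) or day 4 (0.77, 0.0592). The same held without the expanded library of day 1 round 2 (0.50, 0.103), day 2 round 1 (0.67, 0.0729) or day 4 (0.77, 0.0597). The summed level of 12 digestion and stress genes, among them Fos, Jun and Egr1, was 12132 to 16128 CPM in control and 9079.5 to 17002 CPM in expanded fibroblast-like cells. Of these genes 0 were called higher and 6 lower, and their part in the Ptgs2 values was not tested.

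The fibroblast-like class, too, was made of different clusters in the 2 arms. Cluster 0, led by B830012L14Rik, held a mean of 46.9% of the class in control and 9.42% in expanded libraries, and cluster 11, led by the matrix gene Tnc, held 8.09% and 37.0%. Cluster 5 (Igfbp2) held 16.7% and 34.7%, cluster 8 (Lrrc15) 16.4% and 16.1%, and cluster 15 (Sult1e1) 11.9% and 2.75%. Ptgs2 was at 1132 ± 100.3 CPM in 4 control and 1174 ± 255 CPM in 5 expanded libraries of cluster 11, with no call (-0.14, SE 0.20, adjusted p = 0.653). It rose in cluster 5, from 50 ± 14.5 to 191 ± 139 CPM (SD, n = 5 each; 1.51, SE 0.40, adjusted p = 0.0171). In cluster 8 it was at 519.6 ± 187 and 301 ± 223 CPM, not called (-0.89, adjusted p = 0.164). Of all genes, 22.3% were called in cluster 11, 19.2% in cluster 5 and 3.47% in cluster 8. The part of the makeup of the class in its values of Ptgs2 and the other members was not tested.

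In cluster 7 Ptgs2 went from 219, 124, 127, 245 and 171 CPM to 169, 495, 755, 519 and 284 CPM, with the day 1 round 1 expanded library inside the control range (log2 fold change 1.20, SE 0.30, adjusted p = 0.0259). The call was lost without the control library of day 1 round 2 (1.11, adjusted p = 0.0833) or day 2 round 1 (1.03, 0.0576). The same held without the expanded library of day 1 round 2 (0.98, 0.0885) or day 2 round 1 (1.03, 0.0563). In dermal papilla-like cells it went from 64.7, 75.5, 96.6 and 214 CPM to 194, 182, 118 and 367 CPM (0.95, SE 0.23, adjusted p = 0.0280). That call was lost without any one of 7 of the 8 libraries, at 0.75 to 1.11 with adjusted p from 0.0503 to 0.15; the exception was the expanded library of day 2 round 2. The summed stress genes in dermal papilla-like cells were at 13754 to 19811 CPM in control and 17799 to 33969 CPM in expanded libraries, with 1 called higher. In cluster 7 they were at 14374 to 19762 and 12739.8 to 24657 CPM; the part of these genes in the Ptgs2 values was not tested.

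No difference in Ptgs2 was called in the other 6 classes and clusters in which it passed the filter. Basal keratinocyte-like cells gave 80.6 ± 28.7 and 85.8 ± 30.7 CPM (-0.06, adjusted p = 0.909) and dendritic or Langerhans-like cells 249 ± 62.1 and 229 ± 146 CPM (SD, n = 5 each; -0.55, adjusted p = 0.327). Neutrophil-like cells, with 20 or more cells in only 3 control libraries, were not tested, and gave 1205, 927 and 997 CPM in control and 2420.0, 957, 1011, 696 and 783 CPM in expanded libraries. Those ranges overlapped.

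**Figure D4:**
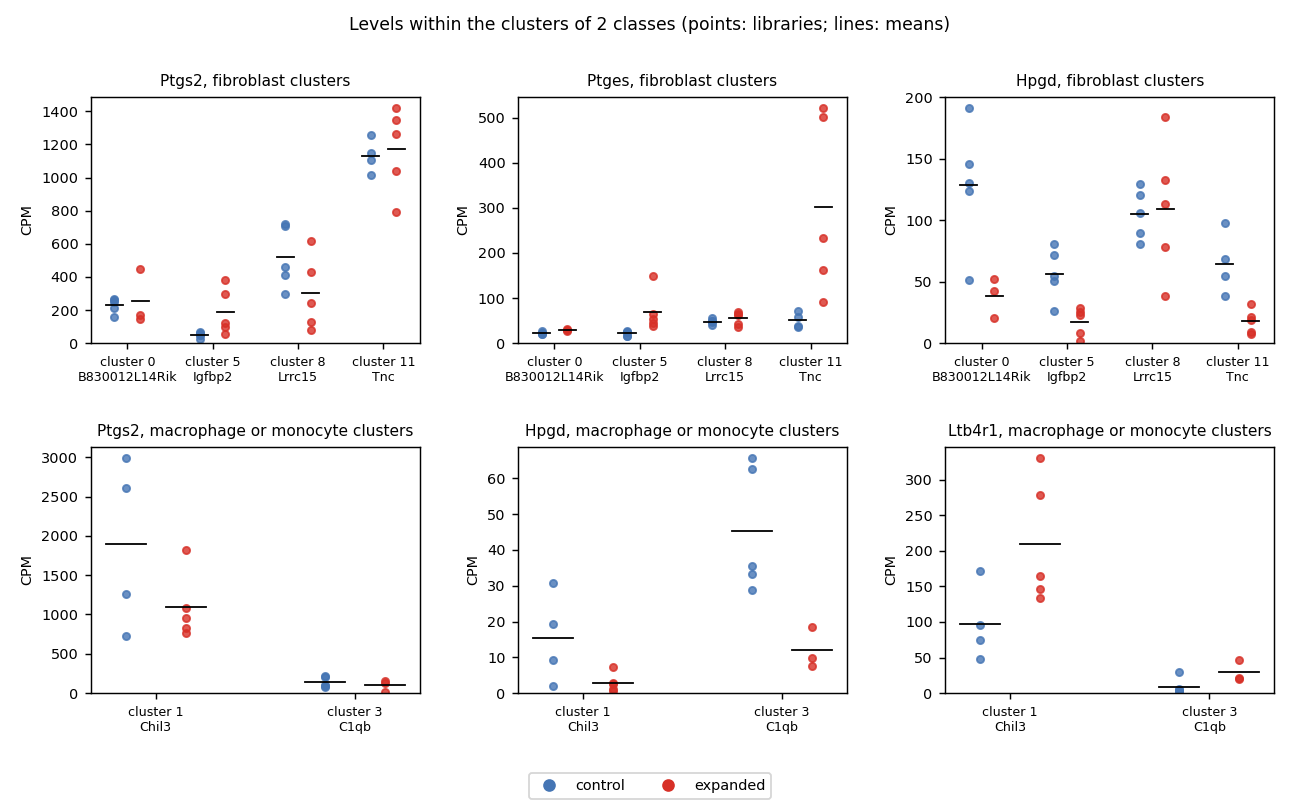
Points give CPM per library within the clusters of the fibroblast-like class (top) and of the macrophage or monocyte-like class (bottom), control in blue and expanded in red, with lines for means; each cluster is labelled with its leading gene. Ptgs2 in cluster 11 averages 1132 CPM in control and 1174 CPM in expanded libraries, whereas Ptges in the same cluster averages 50.4 and 302 CPM.

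Ptges, the inducible prostaglandin E2 synthase, rose in 5 classes that share no cells. In fibroblast-like cells the control libraries gave 30.5, 29.1, 29.6, 44.6 and 33.9 CPM and the expanded ones 53.3, 95.8, 142, 252 and 312 CPM. The groups did not overlap (log2 fold change 1.94, SE 0.31, adjusted p = 0.00107). In basal keratinocyte-like cells it went from 25.5, 18, 12.1, 15.3 and 12.4 CPM to 42.4, 54.6, 53.3, 43.5 and 33.8 CPM (1.36, SE 0.17, adjusted p = 0.00241). In cluster 7 it went from 32.7, 26.0, 34.9, 32.4 and 34.5 CPM to 52.5, 60.1, 120, 84.8 and 116 CPM (1.37, SE 0.18, adjusted p = 0.000626). Neither pair of groups overlapped.

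Pericyte or smooth muscle-like cells gave 10.8, 15.9, 0, 12.1 and 8.51 CPM of Ptges in control and 28, 45.5, 47.9, 36.3 and 139.7 CPM in expanded libraries. The groups did not overlap, and the log2 fold change of 2.33 (SE 0.43, adjusted p = 0.00358) was 1.73 without either day 4 library (adjusted p = 0.0255 without the control one and 0.0293 without the expanded one). Dermal papilla-like cells gave 85.4, 83.0, 97.8 and 108 CPM against 175, 306, 158 and 418 CPM, also without overlap (1.45, SE 0.25, adjusted p = 0.00400). This call was lost without the day 4 control (1.23, adjusted p = 0.0619) or expanded library (1.23, adjusted p = 0.0599).

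The rise of Ptges was seen inside clusters as well. It was called in fibroblast cluster 11, at 50.4 ± 17.3 CPM in 4 control and 302 ± 198 CPM in 5 expanded libraries (2.19, SE 0.32, adjusted p = 0.000763). It was also called in cluster 5, at 22.0 ± 5.04 and 69.9 ± 45.7 CPM (1.33, SE 0.24, adjusted p = 0.00225). It was not called in cluster 8, at 48.0 ± 5.97 and 55.2 ± 15 CPM (0.17, SE 0.18, adjusted p = 0.648). In the basal keratinocyte-like class it was called in both clusters. One went from 22.6 ± 10.3 to 68.4 ± 19.6 CPM in cluster 9, led by Cidea (1.47, adjusted p = 0.00105, where 18% of all genes were called). The other went from 11.5 ± 2.54 to 23.5 ± 4.90 CPM in cluster 2, led by Krt24 (0.95, adjusted p = 0.0401, where 1.11% were). Cidea is also among the sebaceous gland markers used for naming. Lhx2, among the leading genes of cluster 2, is also a hair follicle keratinocyte marker. The class may thus hold gland and follicle cells. Suprabasal keratinocyte-like cells, too few to test, gave 56.1, 45.2, 20.5 and 26.4 CPM in 4 control and 175, 185 and 109 CPM in 3 expanded libraries. Ptges was not called in cluster 28 (98.7 ± 26.0 and 107 ± 34.4 CPM in 5 control and 4 expanded libraries; 0.02, SE 0.27, adjusted p = 0.978). In cluster 13 the non-overlapping values of 14.3 ± 2.90 and 24.1 ± 1.29 CPM were not called (0.73, adjusted p = 0.0902).

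Free RNA from broken fibroblasts can enter droplets of other cells, so the Ptges of the other 4 classes with a call was set beside fibroblast genes there. The summed level of Col1a1, Col1a2, Col3a1, Dcn and Sparc in basal keratinocyte-like cells was 2.09% of its level in fibroblast-like cells in control and 0.496% in expanded libraries, while Ptges was at 49.9% and 26.6% of its fibroblast level. In pericyte or smooth muscle-like cells the matrix genes were at 8.37% and 14.1% and Ptges at 28.3% and 34.8%. In cluster 7 they were at 21.4% and 37.4% and Ptges at 95.8% and 50.6%, and in dermal papilla-like cells at 8.05% and 5.78% and Ptges at 279.7% and 154%. The part of free RNA in these values was not tested. The same collagen and matrix genes fell within the fibroblast-like class itself, from 81638 to 209841 CPM in control to 36002 to 101635 CPM in expanded libraries, with 5 of 5 called lower. Their part in the member values of that class was not tested.

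Ptgis, the prostacyclin synthase, and Ptgds, the prostaglandin D synthase, were not called in any class past the filter. Ptgis in fibroblast-like cells was at 2.16 ± 2.12 and 2.88 ± 4.79 CPM (SD, n = 5 each; 0.18, SE 0.67, adjusted p = 0.867), and a difference was not detectable at this depth. Ptgds in melanocyte-like cells ranged widely, at 6822, 116, 283 and 1713 CPM in 4 control and 889, 386, 179 and 938 CPM in 4 expanded libraries (-1.05, SE 0.39, adjusted p = 0.225), and the ranges overlapped. Fitted without a filter, Ptgds was called lower in melanocyte-like cells (-1.07, SE 0.21, adjusted p = 0.000101, where 1.17% of all genes were called). In that fit it was also called lower at means of 0.261 and 0.0148 CPM in fibroblast-like cells (adjusted p = 0.0391, 20.6% of all genes) and of 1.38 and 0 CPM in macrophage or monocyte-like cells (adjusted p = 4.3e-05, 16.3%). Ptgis was called lower in cluster 7, at 6.03 ± 2.12 and 2.46 ± 1.63 CPM (-1.39, SE 0.42, adjusted p = 0.0208, 6.72%), in 5 of 5 pairs. Without the filter the standard error was smaller for 39 of the 52 combinations past it, with a median of 0.22 against 0.30.

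Hpgd, which inactivates prostaglandins, was called lower in 3 classes. In fibroblast-like and pericyte or smooth muscle-like cells Ptges was called higher, and in macrophage or monocyte-like cells Ptges did not pass the filter. Fitted without a filter, Ptges in the latter was called higher, at 0.973 ± 0.292 and 6.99 ± 4.96 CPM (SD, n = 5 each). Its log2 fold change was 2.68 (SE 0.40, edgeR adjusted p = 8.8e-10, where 16.3% of all genes were called), with 4 of 5 pairs higher. In fibroblast-like cells Hpgd fell from 62.2, 129, 118, 97.4 and 132 CPM to 50.5, 20.8, 32.8, 26.5 and 41.8 CPM, without overlap (log2 fold change -1.80, SE 0.24, adjusted p = 0.000507). In macrophage or monocyte-like cells it fell from 32.6, 33.3, 63.7, 13.4 and 56.1 CPM to 11.3, 2.01, 0.894, 2.82 and 7.54 CPM, again without overlap (-3.48, SE 0.60, adjusted p = 0.00395; -2.86 without the day 2 round 1 control library). Control macrophage or monocyte-like cells held the fibroblast matrix genes at 1.31% of their fibroblast level and Hpgd at 36.9%. In expanded libraries the shares were 0.356% and 14.3%, and the part of free RNA in these values was not tested.

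Within fibroblast clusters Hpgd was lower in cluster 11 (64.7 ± 25.0 CPM in 4 control and 17.7 ± 9.91 CPM in 5 expanded libraries; -1.94, SE 0.34, adjusted p = 0.00239). The same was called in cluster 5 (56.7 ± 21.2 and 17.4 ± 11.9 CPM; -1.67, SE 0.36, adjusted p = 0.00605). In cluster 8 it was at 105 ± 20.5 and 109 ± 55.0 CPM (-0.05, SE 0.21, adjusted p = 0.939). Cluster 0 gave 129 ± 50.4 CPM in 5 control and 38.6 ± 16.3 CPM in 3 expanded libraries, too few to test, and cluster 15 gave 177 ± 69.9 CPM in control and had no expanded library with 20 cells. In control libraries Hpgd was highest in clusters 15 and 0, whose shares of the class were lower in expanded skin; in expanded libraries it was highest in cluster 8. The part of this makeup in the class value was not tested. In the macrophage clusters Hpgd was at 15.4 ± 12.4 and 2.91 ± 2.64 CPM in cluster 1 (-1.98, SE 0.61, adjusted p = 0.143, not called). It was at 45.2 ± 17.5 and 12.0 ± 5.79 CPM in cluster 3 (5 control and 3 expanded libraries, no test).

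Pericyte or smooth muscle-like cells showed a lower Hpgd that rested on single libraries: 24.6, 12.0, 29.7, 14.1 and 34.1 CPM in control and 19.6, 12.2, 5.44, 6.98 and 4.05 CPM in expanded libraries (-1.37, SE 0.44, adjusted p = 0.0452). The call was lost with DESeq2 (-1.44, adjusted p = 0.0547). It was also lost without the control library of day 1 round 1 (-1.36, adjusted p = 0.0880), day 2 round 1 (-1.21, 0.0972), day 2 round 2 (-1.5, 0.0530) or day 4 (-0.87, 0.231). The same held without the expanded library of day 1 round 2 (-1.42, 0.0651), day 2 round 1 (-1.29, 0.0962), day 2 round 2 (-1.36, 0.0857) or day 4 (-0.87, 0.215). Dendritic or Langerhans-like cells gave 19.5 ± 10.5 and 8.74 ± 3.35 CPM, not called over the class (-1.39, adjusted p = 0.0599). It was called in cluster 4 (-2.04, SE 0.61, adjusted p = 0.0377, where 19.5% of all genes were called). Hpgd was at 28.2 ± 13.4 and 32.5 ± 9.37 CPM in basal keratinocyte-like cells (SD, n = 5 each), with no call (0.38, adjusted p = 0.414).

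**Figure D5:**
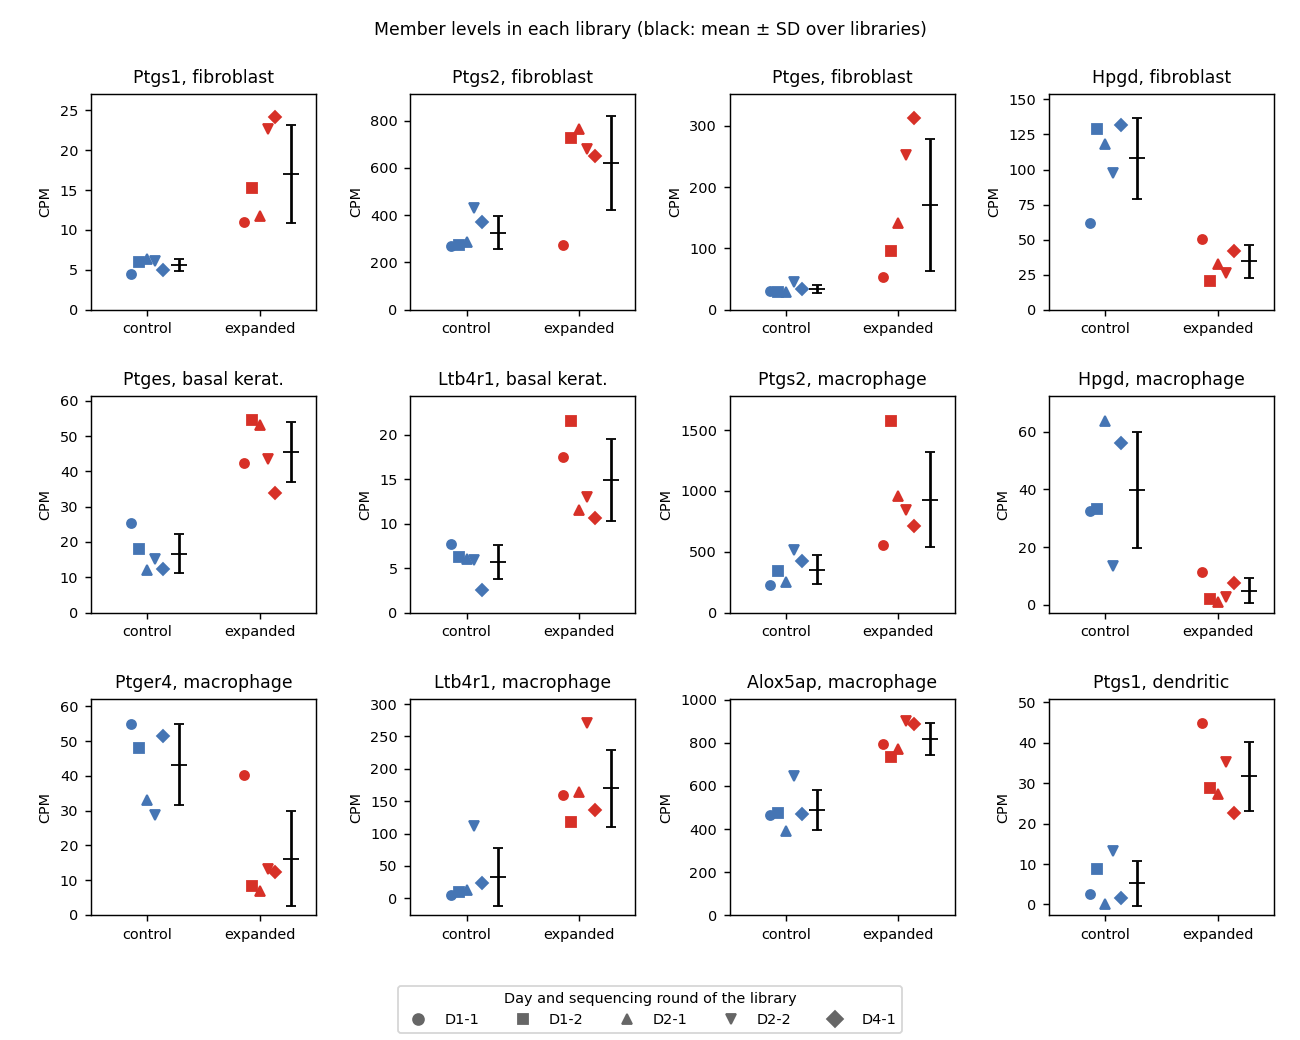
Each panel gives the CPM of 1 gene in 1 class per library, control in blue and expanded in red, with marker shapes for day and round and black marks for mean ± SD over libraries. In fibroblast-like cells the expanded libraries of Ptges reach 312 CPM above a control maximum of 44.6, and those of Hpgd end at 50.5 CPM below a control minimum of 62.2.

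The receptor Ptger4 fell in macrophage or monocyte-like cells, from 54.9, 48.0, 32.9, 28.8 and 51.4 CPM to 40.3, 8.36, 6.74, 13.2 and 12.3 CPM. The day 1 round 1 expanded library lay inside the control range, and the other 4 lay below it (log2 fold change -1.68, SE 0.34, adjusted p = 0.00797). That library was also the expanded one with the most cluster 3 cells, 59.3% of the class. Ptger4 in cluster 3 was at 50.8 ± 10.9 CPM in 5 control and 37.9 ± 21.6 CPM in 3 expanded libraries. In cluster 1 it was at 14.8 ± 7.74 and 9.55 ± 3.11 CPM, where no difference was called (-0.61, SE 0.38, adjusted p = 0.482). In basal keratinocyte-like cells Ptger4 was at 33.5 ± 5.81 and 21.7 ± 6.41 CPM, not called over the class (-0.58, SE 0.17, adjusted p = 0.0528). It was lower in their cluster 9, from 53.0 ± 9.78 to 32.5 ± 9.88 CPM (SD, n = 5 each; -0.71, SE 0.17, adjusted p = 0.0142). Fibroblast-like cells gave 12.5 ± 2.18 and 17.0 ± 2.77 CPM (0.24, adjusted p = 0.204) and T or innate lymphoid cell-like cells 28.2 ± 4.37 and 30.4 ± 5.66 CPM (0.02, adjusted p = 0.977).

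The other prostaglandin E2 receptor, Ptger2, was called higher in macrophage or monocyte-like cells, at 0.556, 3.49, 1.34, 2.23 and 2.79 CPM in control and 5.67, 4.01, 5.57, 7.38 and 6.85 CPM in expanded libraries (1.41, SE 0.40, adjusted p = 0.0273). The groups did not overlap, but these are few molecules. The call was lost without the control library of day 2 round 1 (1.36, adjusted p = 0.0568), day 2 round 2 (1.40, 0.0536) or day 4 (1.53, 0.0663). The same held without the expanded library of day 2 round 2 (1.32, 0.0628) or day 4 (1.51, 0.0696). Within cluster 1 Ptger2 was at 8.46 ± 4.37 CPM in 4 control and 6.68 ± 1.96 CPM in 5 expanded libraries (-0.06, adjusted p = 0.98). In T or innate lymphoid cell-like cells it was at 7.22 ± 4.31 and 9.31 ± 5.35 CPM, with no call (0.22, adjusted p = 0.782).

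In the leukotriene branch, Ltb4r1 showed the largest rise of a member in macrophage or monocyte-like cells, from 5.0, 9.69, 12.7, 112 and 24.2 CPM to 160.0, 118, 164, 271 and 137 CPM (log2 fold change 2.68, SE 0.56, adjusted p = 0.00811). The groups did not overlap, although the day 2 round 2 control library came close, and the value was 3.58 without it (adjusted p = 0.000461). That control library was also the one with the most cluster 1 cells, 54.8% of its class. Ltb4r1 was at 97.4 ± 52.9 and 210.3 ± 88.1 CPM in cluster 1, not called (0.91, SE 0.34, adjusted p = 0.233), and at 8.43 ± 12.2 and 29.6 ± 15 CPM in cluster 3. In dendritic or Langerhans-like cells it was not called over the class (75.7 ± 21.1 and 132 ± 56.3 CPM; 0.51, adjusted p = 0.15). It was higher in cluster 4, from 90.7 ± 26.4 to 204 ± 80.2 CPM (SD, n = 5 each; 0.92, SE 0.22, adjusted p = 0.0168).

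Ltb4r1 was also higher in basal keratinocyte-like cells, from 7.75, 6.2, 6.05, 5.86 and 2.49 CPM to 17.5, 21.6, 11.6, 13 and 10.6 CPM, without overlap (1.42, SE 0.19, adjusted p = 0.00295). Within them it was higher in cluster 9, from 4.23 ± 3.10 to 19.1 ± 8.45 CPM (1.85, SE 0.30, adjusted p = 0.00282). In cluster 2 it was at 7.88 ± 5.67 and 11.0 ± 3.82 CPM (0.91, adjusted p = 0.144). Fibroblast-like cells gave 0.677, 0.652, 0, 1.11 and 0.709 CPM in control and 1.85, 1.72, 5.15, 1.10 and 2.08 CPM in expanded libraries (1.65, SE 0.51, adjusted p = 0.0287). That call was lost with day and round as a replicate block (1.59, adjusted p = 0.0580). It was also lost without the control library of day 1 round 2 (1.68, 0.0522) or day 4 (1.72, 0.0556). The same held without the expanded library of day 2 round 1 (1.13, 0.143) or day 4 (1.73, 0.0611). In basal keratinocyte-like cells 5 neutrophil genes (S100a8, S100a9, Retnlg, Cxcr2 and Csf3r) summed to 0.00638% of their neutrophil level in control and 0.205% in expanded libraries, while Ltb4r1 stood at 5.11% and 16.6% of its neutrophil level. In fibroblast-like cells the same figures were 0.00162% and 0.0543% for the list and 0.568% and 2.65% for Ltb4r1. Of the Ltb4r1 UMIs, neutrophil-like cells held 0.517% in control and 4.34% in expanded libraries, and macrophage or monocyte-like cells 15.5% and 53.0%. These figures are set against neutrophils alone, and the part of free RNA from any class was not tested.

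Alox5ap rose in macrophage or monocyte-like cells, from 466, 473, 392, 645 and 472 CPM to 793, 733, 774, 904 and 889.7 CPM, without overlap (0.63, SE 0.14, adjusted p = 0.0105). Within cluster 1 it was at 754 ± 134 and 869 ± 113 CPM, not called (0.14, SE 0.17, adjusted p = 0.755), and in cluster 3 at 453 ± 78.9 and 638 ± 82.3 CPM in 5 control and 3 expanded libraries. In dendritic or Langerhans-like cells, 594 ± 72.4 and 722 ± 144 CPM, there was no call (0.04, SE 0.14, adjusted p = 0.862). Cluster 4 rose from 597 ± 74.4 to 917 ± 114 CPM (0.41, SE 0.13, adjusted p = 0.0399). Cluster 9 of the basal keratinocyte-like class was called at a low level, from 4.47 ± 2.30 to 12.6 ± 7.31 CPM (1.22, SE 0.37, adjusted p = 0.0374). The 5 neutrophil genes summed to 34.2 to 87.2 CPM in control and 267 to 1759 CPM in expanded macrophage or monocyte-like cells, which was 0.0725% and 0.704% of their neutrophil level. Alox5ap stood at 50% and 79.7%, Ltb4r1 at 29.5% and 189% and Ptger2 at 5.07% and 20.1% of theirs. The part of free neutrophil RNA in these values was not tested. Within cluster 1 edgeR called 0 of the 6 members called over the macrophage or monocyte-like class, where 1.39% of all genes were called in 4 control and 5 expanded libraries, and cluster 3 was not tested. The part of the exchange of cluster 3 for cluster 1 in the 6 class values was not tested.

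Over whole libraries, where fewer cells of a type and less RNA per cell cannot be told apart, 5 of the 10 members were called against 26.3% of all genes. Hpgd fell from 61.9 ± 15 to 16.9 ± 8.17 CPM (-2.14, adjusted p = 0.00200), and Ptges rose from 22.4 ± 2.88 to 52.2 ± 15.7 CPM (0.99, adjusted p = 0.00495), neither with overlap. Ltb4r1 rose from 13.4 ± 9.67 to 51.1 ± 32.3 CPM (1.66, adjusted p = 0.00336) and Ptger2 from 0.839 ± 0.399 to 2.8 ± 1.81 CPM (1.39, adjusted p = 0.0152). Ptgs1 rose from 9.1 ± 2.23 to 15.8 ± 4.34 CPM (SD, n = 5 each; 0.59, adjusted p = 0.0385). This call was lost without the control library of day 1 round 1 (0.53, adjusted p = 0.0887), day 2 round 1 (0.54, 0.0860) or day 4 (0.49, 0.135). The same held without the expanded library of day 1 round 2 (0.52, 0.102), day 2 round 2 (0.54, 0.0994) or day 4 (0.50, 0.135). Ptgs2, at 229 ± 32.4 and 347 ± 166 CPM, was not called (0.33, adjusted p = 0.418). Nor was Alox5ap (0.70, adjusted p = 0.0566), which passed with DESeq2 (0.68, adjusted p = 0.0320) and without the day 1 round 1 control (0.81, 0.0465) or expanded library (0.84, 0.0377).

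A difference between days in the effect of expansion was called for 0 members by edgeR's quasi-likelihood test and for 0 by DESeq2, where 0.00293% of all gene and class combinations were called by edgeR. The lowest adjusted p was 0.311, for Hpgd in basal keratinocyte-like cells, with log2 fold changes of 0.80 on day 1, -0.79 on day 2 and 1.36 on day 4. At an unadjusted p under 0.05 lay 3 of 7 members in basal keratinocyte-like cells (5.28% of all genes), 2 of 8 in fibroblast-like cells (3.41%) and 2 of 2 in pericyte or smooth muscle-like cells (5.67%). So did 1 of 6 in dendritic or Langerhans-like cells (3.87%), 1 of 2 in endothelial-like cells (4.05%), 1 of 3 in cluster 28 (6.41%) and 1 of 10 over whole libraries (4.19%). It held for 0 of 6 members in macrophage or monocyte-like cells and 0 of 5 in T or innate lymphoid cell-like cells. The same was 0 of 3 in cluster 7, 0 of 3 in cluster 13 and 0 of 1 in Schwann-like cells. Day 4 has 1 library per arm. The values of Ptges on days 1, 2 and 4 were 1.07 ± 0.33, 2.27 ± 0.34 and 3.0 ± 0.49 (SE) in fibroblast-like cells. They were 1.23 ± 0.54, 2.30 ± 0.59 and 3.87 ± 0.66 in pericyte or smooth muscle-like cells and 1.06 ± 0.53, 1.31 ± 0.38 and 1.99 ± 0.49 in dermal papilla-like cells. Dermal papilla-like cells had too few libraries for the test between days. No difference between days was called for Ptges in any class tested, so a rise with day was not shown. In pericyte or smooth muscle-like and dermal papilla-like cells, an expanded day 2 level listed earlier was below a day 1 level. In basal keratinocyte-like cells and cluster 7, the expanded day 4 level listed earlier was not above both day 2 levels. These are levels in expanded libraries alone and cannot be set against the fold changes. The values of Hpgd in fibroblast-like cells on the same days were -1.64 ± 0.41, -1.96 ± 0.43 and -1.86 ± 0.59.

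Single mice could be told apart in 8 libraries by antibody hashtags. Tested over hashed mice, with day and round as a factor, members were called in 11 of the 16 combinations called over libraries in the same 7 classes, where 27.5% of all gene and class combinations were called. Of the other combinations, Ptgs2 in fibroblast-like cells was not called, and 4 did not pass the filter over mice: Ptgs1 and Ltb4r1 in fibroblast-like, Ltb4r1 in basal keratinocyte-like and Ptger2 in macrophage or monocyte-like cells. Mice of 1 arm and round share a reaction, so these p-values are not free of library effects. Ptges in fibroblast-like cells had a median of 32.5 CPM over 14 control mice and 129 CPM over 9 expanded mice (2.12, SE 0.25, adjusted p = 5.6e-07). Hpgd had medians of 118 and 36.1 CPM in the same cells (-1.96, SE 0.30, adjusted p = 1.5e-05). It had medians of 28.6 and 1.91 CPM in macrophage or monocyte-like cells of 14 control and 12 expanded mice (-3.71, SE 0.51, adjusted p = 1.6e-06). Over mice 3 combinations not called over libraries were called: Hpgd in dendritic or Langerhans-like cells (-1.76, adjusted p = 0.0140), Ptger4 in the same cells (0.92, adjusted p = 0.00615) and Ptger4 in basal keratinocyte-like cells (-0.86, adjusted p = 0.00145).

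Around the members, 70 other genes of arachidonate, prostanoid, leukotriene and epoxide metabolism were read from a list drawn up by role. The share of all genes called in each class is given beside their counts for reference. In fibroblast-like cells 4 of 38 rose and 12 fell (33.1% of all genes called); in macrophage or monocyte-like cells 3 of 33 rose and 12 fell (23.4%). In dendritic or Langerhans-like cells 4 of 32 rose and 5 fell (20%); in basal keratinocyte-like cells 3 of 33 rose and 1 fell (10.5%). In pericyte or smooth muscle-like cells 2 of 17 rose and 3 fell (19.4%), in endothelial-like cells 2 of 17 rose and 1 fell (10.9%), and in cluster 7 2 of 25 rose and 2 fell (8.40%). In cluster 13 1 of 23 rose and 1 fell (1.63%), and in cluster 28 2 of 12 fell (6.76%). Of 19 in dermal papilla-like cells 1 fell (3.56%), and of 13 in lymphatic endothelial-like cells 2 fell (12.0%). None of 8 was called in melanocyte-like, of 16 in Schwann-like or of 21 in T or innate lymphoid cell-like cells (1.33%, 0.257% and 0.638% of all genes). Of the 35 calls that the rule for named genes picks, whole libraries included, 22 held when any one library was left out, and those described next are among the 22 except Ptger3; the macrophage or monocyte-like values of Hpgds and the values of Alox5 fall outside the rule and were added after they were seen.

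Near the prostaglandin members, the exporter Abcc4 fell in fibroblast-like cells from 60.8 ± 15.4 to 18.3 ± 10.8 CPM (-1.94, adjusted p = 0.000607). Ptgir, the prostacyclin receptor, rose there from 7.19 ± 2.76 to 24.1 ± 13.6 CPM (1.48, adjusted p = 0.000922). Ptgir fell in dendritic or Langerhans-like cells from 46.6 ± 7.22 to 16.0 ± 11.9 CPM (-1.95, adjusted p = 0.00172). Slco2a1, the prostaglandin uptake transporter, rose in endothelial-like cells from 91.2 ± 40.7 to 302 ± 39.8 CPM (1.57, adjusted p = 0.00353). Hpgds, the other prostaglandin D synthase, rose in dendritic or Langerhans-like cells from 22.6 ± 10.8 to 114 ± 34.0 CPM (SD, n = 5 each; 2.08, adjusted p = 0.00118). It fell in macrophage or monocyte-like cells from 144 ± 66.3 to 62.1 ± 31.0 CPM (-1.44, adjusted p = 0.0196), a call lost without the expanded library of day 2 round 2 (adjusted p = 0.0502). Pla2g4a, the cytosolic phospholipase that releases arachidonic acid, rose in cluster 7 from 16.5 ± 8.94 to 54.7 ± 19.6 CPM (1.62, adjusted p = 0.000223). Ptger3, another prostaglandin E2 receptor, fell in dermal papilla-like cells from 79.1 ± 19.8 to 35.4 ± 12.3 CPM (SD, n = 4 each; -1.33, adjusted p = 0.00927). This call was lost without either day 4 library, at -0.94 at the smallest with an adjusted p of up to 0.179.

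Near the leukotriene members, Ltc4s, the leukotriene C4 synthase, rose in dendritic or Langerhans-like cells from 12.7 ± 8.32 to 74.2 ± 14.1 CPM (2.23, adjusted p = 0.00252). It fell in macrophage or monocyte-like cells from 12.5 ± 9.69 to 1.76 ± 1.32 CPM (-2.88, adjusted p = 0.00797; -2.22 without the day 2 round 1 control library). Ltc4s is also among the Langerhans markers, and the Langerhans-marked cluster 20 was a larger part of its class in expanded skin. Among macrophage or monocyte-like cells, cluster 3 held a mean of 81.7% in control and 17.7% in expanded libraries. The part of such makeup in the class values of the other pathway genes named here and above was not tested. Alox5, the 5-lipoxygenase served by Alox5ap, changed in the same directions as Ltc4s: it rose in dendritic or Langerhans-like cells from 5.76 ± 2.40 to 27.6 ± 14.1 CPM (1.94, adjusted p = 0.00627). It fell in macrophage or monocyte-like cells from 28.3 ± 11.2 to 7.77 ± 8.44 CPM (-2.26, adjusted p = 0.00601). In the latter cells Ggt5, which converts leukotriene C4 to D4, fell from 21.7 ± 10.5 to 3.67 ± 2.04 CPM (SD, n = 5 each; -2.73, adjusted p = 0.00178). Ltb4r2, the low-affinity leukotriene B4 receptor, rose beside Ltb4r1 in basal keratinocyte-like cells, from 5.54 ± 2.08 to 14.4 ± 3.18 CPM (1.49, SE 0.21, adjusted p = 0.00409). Ltb4r2 (chr14:55761428-55765138) ends 823 bases before Ltb4r1 on the same strand, so the 2 receptors' values may share reads that run past the end of the first.

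The genes with the most similar profiles were taken by Pearson correlation of log2(CPM + 1) over 40 class-by-arm means from 20 classes and clusters, among 15490 genes; the points share libraries, and the values are descriptions. Alox5ap was closest to Spi1 (r = 0.972) and Card9 (0.964), Ptgds to Pmel (0.960) and Slc45a2 (0.954), and Ltb4r1 to Rab11fip1 (0.93) and Adam8 (0.902). Ptgis was closest to Emid1 (0.876), Ptger2 to Fam71f2 (0.871), Ptges to Dnmt3l (0.849) and Tpbg (0.841), Ptgs2 to Smim3 (0.782), Hpgd to Il1rl2 (0.775), Ptgs1 to Tgfa (0.720) and Ptger4 to Sh3bp1 (0.702). Among the members, Alox5ap and Ltb4r1 had r = 0.83 and Ptgs2 and Alox5ap 0.68, whereas the 2 cyclooxygenases had r = -0.26 and Ptges and Hpgd 0.49.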

How the data were processed

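The authors deposited gene-by-cell count matrices (whole-number UMI counts, not normalized) made with Cell Ranger 6.1.2 on mm10, per the submitters' processing notes, for 10 mRNA libraries of the 18 samples; the other 8 are hashing libraries. Genes are 32285 per library. Kept cells had at least 200 genes, 500 UMIs and at most 10% mitochondrial UMIs; 1794 doublets, called by Scrublet (0.0584% to 2.97% per library) or by carrying the hashtags of several mice, were removed (1.69% to 5.78% per library). Cells were clustered (scanpy 1.11.5, leidenalg 0.10.2; 2000 variable genes, 30 components, 15 neighbours, resolution 1) and named from markers, each in at least 10% of cells and 2-fold above the rest; differences from the study may come from these rebuilt names. Hashtags were called with Seurat 5.3.0.

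Counts were summed per class and library with at least 20 cells and tested with edgeR 4.0.16 (quasi-likelihood, TMM scaling, filter on low counts, day as covariate, Benjamini-Hochberg over all genes of the class). The scripts were tested on simulated data. Alternatives were DESeq2 1.42.0, a replicate block, no filter, cells thinned to 2000 UMIs, at least 50 cells, hashed mice and leaving out each library; testing clusters alone was added after the data were seen. The labels give each control and expanded pair the same day and sequencing round, and deviations within a pair correlated at 0.0121 to 0.509. Other pathway genes were named, at most 4 per class by size of change, where called and changed the same way in every pair, and the 3 genes closest to each member by profile were taken. The members, the gene lists and the rules were chosen with earlier results of these data known. Sequences are from RefSeq (GRCm38.p6) and gene positions from GENCODE on GRCm38; strand-specific counting is not given in the sources used here.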

Additional observations from a re-analysis of the deposited data

Results flagged for a closer look

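In 19 of 124 groups of 4 or 5 libraries, 1 library stood apart from the others by Dixon's test, where chance gives about 5% of groups. In control skin, the day 2 round 2 library was high for Ltb4r1 in macrophage or monocyte-like cells (112 CPM against 5.0 to 24.2), in dendritic or Langerhans-like cells (112 against 57.6 to 73.2) and over all cells (30.2 against 5.97 to 12.4). The day 4 control library was high for Alox5ap in dendritic or Langerhans-like cells (719.9 against 537 to 582), the day 1 round 2 control library low for Ptges in cluster 7 (26.0 against 32.4 to 34.9), and the day 2 round 1 control library high for Ptgis over all cells (3.11 against 0.822 to 1.41).

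In expanded skin, the day 2 round 1 library was high in fibroblast-like cells for Alox5ap (15.4 CPM against 3.18 to 4.97), Ltb4r1 (5.15 against 1.10 to 2.08) and Ptgis (11.2 against 0 to 2.60). It was also high for Hpgd in dermal papilla-like cells (120.3 against 25.3 to 30.4) and Ptgis over all cells (2.39 against 0.794 to 1.19), and low for Hpgd in dendritic or Langerhans-like cells (2.88 against 9.38 to 11.2). The day 4 expanded library was high for Ptges in pericyte or smooth muscle-like cells (139.7 against 28 to 47.9), in cluster 28 (158 against 84.9 to 95.4) and over all cells (79.5 against 39.2 to 48.3). The day 1 round 1 expanded library was high for Alox5ap in T or innate lymphoid cell-like cells (126 against 0.785 to 10.0) and for Ptger4 in macrophage or monocyte-like cells (40.3 against 6.74 to 13.2), and low for Ptgs2 in fibroblast-like cells (272 against 652 to 763). The day 1 round 2 expanded library was high for Ptgs2 in cluster 13 (74.6 against 4.64 to 23.9).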

How the results depend on the processing

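Of the 21 calls of members in single classes, 13 held under each of the other fits that could be made, those added after seeing the data apart, and the others are given with their values in the report. The total was 23 with DESeq2, 22 with the replicate block and 14 to 23 when 1 library was left out. With no filter on low counts it was 40: the same 21, 10 more past the filter and 9 not past it. Not described earlier among the 9 were Hpgd, lower in endothelial-like (-3.60) and Schwann-like cells (-3.49), and Ptgs2. Ptgs2 was lower in endothelial-like cells (-1.42) and higher in pericyte or smooth muscle-like cells (1.06). The cause was not tested. Counts of other pathway genes were 63 as reported, 71 with DESeq2, 72 with the replicate block, 98 with no filter, 31 against 62 after thinning to 2000 UMIs, and 41 to 63 when 1 library was left out, the lowest without the day 4 expanded library. The replicate block ended the fibroblast-like Ltb4r1 call, added 2 calls and changed no other. Over whole libraries 4 to 6 members were called when 1 library was left out. Dermal papilla-like and melanocyte-like cells could not be fitted after thinning. In the 12 classes that could, 13 calls of members were made after thinning to 2000 UMIs, against 18 without thinning. Calls whose gene did not pass the filter in an alternative fit were not counted as lost under it. With clusters tested in place of their class, an alternative chosen after seeing the data, the direction turned for Ptgs2 in cluster 1 (-0.62), Ptger2 in cluster 1 (-0.06), and Ptgs2 in cluster 11 (-0.14) and cluster 8 (-0.89); the cause was not tested. Counts over all genes moved by more than 1.5 times in most classes: thinning gave 1877 against 4072 in fibroblast-like cells, 252 against 1163 in basal keratinocyte-like cells, 1337 against 2370 in macrophage or monocyte-like and 657 against 1851 in dendritic or Langerhans-like cells. DESeq2's scaling moved the median log2 fold change of all genes to -0.17 in lymphatic endothelial-like cells, 0.17 in fibroblast-like cells, -0.13 in cluster 28 and -0.15 in basal keratinocyte-like cells. Ptgis and Ptger2 are limited by few UMIs.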
